A study of Homo sapiens with 14 samples.

Results

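Mitochondrial ribosomal protein genes were taken as the protein-coding genes of the RefSeq annotation of GRCh38.p14 (hg38) whose symbol starts with MRPL or MRPS. There were 77 such genes of 20037 protein-coding genes, 49 with an MRPL and 28 with an MRPS symbol. Regions of the deposited count table were assigned to a gene when they overlapped its span or lay within 5 kb of it, which gave 140 of the 54942 regions. H3K4me2, the dimethyl mark on lysine 4 of histone H3, was measured by ChIP-seq. The cells were MDA-MB-231, a long-established line from a triple-negative breast tumour. The 6 libraries counted were 3 from cells given OICR-9429, a small molecule that blocks the histone-reader protein WDR5, and 3 from cells given its solvent DMSO. The labels give the treatment as 24 to 96 hours without tying a library to a time, and 5% Drosophila chromatin was added to each as a spike-in. The 7 input libraries and the untreated ChIP library were not analysed here. The design asks how blocking WDR5 changes H3K4me2, and all values are for 1 cell line.

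Mitochondrial ribosomes translate the few mRNAs encoded by mitochondrial DNA, all of them for subunits of the oxidative phosphorylation complexes. Their RNAs come from mitochondrial DNA, whereas all their proteins are encoded in the nucleus, made in the cytosol and imported. Many of these proteins have a bacterial counterpart and others are found in mitochondria only. H3K4me2 marks promoters and other regulatory elements, and WDR5 is a shared subunit of the complexes that methylate lysine 4 of histone H3. Promoters of nuclear genes for mitochondrial proteins are often CpG-rich and are known to use the factors NRF1, GABP (an ETS-family factor) and YY1.

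The promoter windows below run from 250 bases before to 50 bases after the annotated start, in the gene's own direction, and come from RefSeq (GRCh38.p14). Capitals mark every match to 3 motifs on either strand: NRF1 (GCGCANGCG), ETS (CCGGAAG) and YY1 (AAGATGGC). They were picked after the values were seen. MRPS2 had the largest change of a main region, and its first annotated start is shown. MRPS16 and MRPL52 kept their calls with any 1 library left out. MRPL46 shares its H3K4me2 region with MRPS11. MRPL51 and MRPS22 did not pass the test, and MRPL17 and MRPL20 carry the NRF1 matches.
MRPS2 (chr9:135499715-135500014, plus strand): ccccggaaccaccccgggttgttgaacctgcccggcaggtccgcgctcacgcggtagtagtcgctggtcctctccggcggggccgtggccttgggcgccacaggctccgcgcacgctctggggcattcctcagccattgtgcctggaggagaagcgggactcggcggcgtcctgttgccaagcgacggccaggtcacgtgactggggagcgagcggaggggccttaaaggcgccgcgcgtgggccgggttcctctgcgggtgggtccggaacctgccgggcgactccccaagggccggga
MRPS16 (chr10:73252595-73252894, minus strand): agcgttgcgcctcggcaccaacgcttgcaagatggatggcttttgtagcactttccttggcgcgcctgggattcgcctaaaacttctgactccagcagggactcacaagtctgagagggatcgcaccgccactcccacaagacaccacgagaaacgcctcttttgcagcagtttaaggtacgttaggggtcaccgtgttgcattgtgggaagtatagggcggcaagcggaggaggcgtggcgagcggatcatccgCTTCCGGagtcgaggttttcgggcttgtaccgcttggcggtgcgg
MRPL52 (chr14:22829637-22829936, plus strand): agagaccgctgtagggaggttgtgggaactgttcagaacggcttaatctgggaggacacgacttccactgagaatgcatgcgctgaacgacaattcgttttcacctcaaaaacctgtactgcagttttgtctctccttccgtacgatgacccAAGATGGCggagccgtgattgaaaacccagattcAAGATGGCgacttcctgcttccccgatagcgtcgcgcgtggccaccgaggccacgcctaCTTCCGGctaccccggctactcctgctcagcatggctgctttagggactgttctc
MRPL46 (chr15:88467339-88467638, minus strand): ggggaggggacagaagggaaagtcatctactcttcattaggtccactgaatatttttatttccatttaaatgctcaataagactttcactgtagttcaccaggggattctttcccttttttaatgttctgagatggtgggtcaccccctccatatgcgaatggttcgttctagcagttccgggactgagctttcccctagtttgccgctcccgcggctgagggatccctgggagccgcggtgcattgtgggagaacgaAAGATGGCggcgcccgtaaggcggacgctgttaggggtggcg
MRPL51 (chr12:6493213-6493512, minus strand): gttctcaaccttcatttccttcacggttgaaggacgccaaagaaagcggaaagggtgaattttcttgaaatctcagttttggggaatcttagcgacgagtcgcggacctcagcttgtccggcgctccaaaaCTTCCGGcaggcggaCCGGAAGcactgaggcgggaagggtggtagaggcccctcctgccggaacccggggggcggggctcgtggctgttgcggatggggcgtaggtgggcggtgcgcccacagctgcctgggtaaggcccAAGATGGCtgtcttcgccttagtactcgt
MRPS22 (chr3:139343744-139344043, plus strand): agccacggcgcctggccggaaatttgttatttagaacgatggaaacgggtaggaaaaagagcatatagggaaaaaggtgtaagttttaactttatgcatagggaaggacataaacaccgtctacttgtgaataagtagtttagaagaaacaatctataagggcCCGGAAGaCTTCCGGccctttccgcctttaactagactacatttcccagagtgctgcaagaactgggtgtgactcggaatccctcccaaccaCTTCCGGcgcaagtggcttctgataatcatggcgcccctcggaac
MRPL17 (chr11:6683291-6683590, minus strand): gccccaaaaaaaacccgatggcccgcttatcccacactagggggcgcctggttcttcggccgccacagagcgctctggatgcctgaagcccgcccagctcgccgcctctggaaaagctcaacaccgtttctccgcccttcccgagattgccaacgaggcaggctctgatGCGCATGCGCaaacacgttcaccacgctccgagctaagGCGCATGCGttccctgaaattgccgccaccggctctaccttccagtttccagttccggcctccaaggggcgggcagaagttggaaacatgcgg
MRPL20 (chr1:1407244-1407543, minus strand): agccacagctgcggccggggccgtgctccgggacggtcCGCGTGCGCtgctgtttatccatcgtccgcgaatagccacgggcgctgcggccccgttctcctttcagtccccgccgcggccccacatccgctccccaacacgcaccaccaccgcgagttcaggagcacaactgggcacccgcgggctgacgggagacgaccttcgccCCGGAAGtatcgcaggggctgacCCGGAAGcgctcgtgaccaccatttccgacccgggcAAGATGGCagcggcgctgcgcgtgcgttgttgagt
The MRPS2 window held none of the 3 motifs, and the MRPL20 window was the only one of these 8 with all 3. In MRPL46, MRPL51 and MRPL20 the YY1 match lay just after the start, whereas in MRPL52 both matches lay before it. MRPS16 had 1 ETS match, after the start on the opposite strand.

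Depth ranged from 16483098 to 23509413 counts per library over all regions. Each library was scaled with TMM factors, and levels are given as normalised CPM, the usual depth-scaled counts (CPM) taken on that library size. The triple-negative and mesenchymal markers VIM, ZEB1, CD44, AXL and EGFR had regions strong by count (71.4 to 171 normalised CPM). The luminal markers ranged from 10.4 at PGR and 17.4 at ESR1 to 43.5 at ERBB2, 45.7 at GATA3 and 82.9 at FOXA1, so the levels of both lists overlapped. Of the blood and endothelial markers the PTPRC region was too low to be tested, while CD3E, CDH5 and PECAM1 stood at 17.5, 25.7 and 68.5 normalised CPM, so markers of other cell types were not at 0. In the order given, the tested regions of these lists had median lengths of 10358, 2749 and 3432 bases. Per kb of region their medians were closer, at 10.0, 9.22 and 7.77 normalised CPM. Regions of mitochondrial ribosomal protein genes held 0.449%, 0.438% and 0.471% of all counts in DMSO replicates 1 to 3 and 0.525%, 0.490% and 0.492% in OICR-9429 replicates 1 to 3. The groups did not overlap (0.453% ± 0.0168 and 0.503% ± 0.0198, SD, n = 3 each). The main regions of all protein-coding genes showed the same order, with 51.1% ± 2.38 of counts with DMSO and 56.5% ± 1.91 with OICR-9429.

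Each gene was represented by its main region, the one of its regions with the highest mean count. Of the 77 genes 76 had a region, with 75 distinct main regions because MRPS11 and MRPL46 share one, and 73 of these had enough counts to be tested. H3K4me2 was higher with OICR-9429 at 42 main regions (43 genes) and lower at none by edgeR's quasi-likelihood test (adjusted p under 0.05 over all 51156 tested regions). No main region was lower at an unadjusted p under 0.05 (0 of 73) or by DESeq2's Wald test (0 lower). The median log2 fold change was 0.38, with a range from -0.16 to 0.65, and 72 of 73 values were above 0. The higher share, 57.5%, stands beside 47.9% higher and 3.07% lower among the main regions of all protein-coding genes, whose median was 0.36. The figures over all tested regions were 17.0% higher, 14.0% lower and a median of 0.03. In 53 of the 73 regions every OICR-9429 library lay above every DMSO library, against 58.3% of all main regions, and in none did every treated library lie below, against 5.21%. The family thus stood close to the main regions of all genes.

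**Figure D1:**
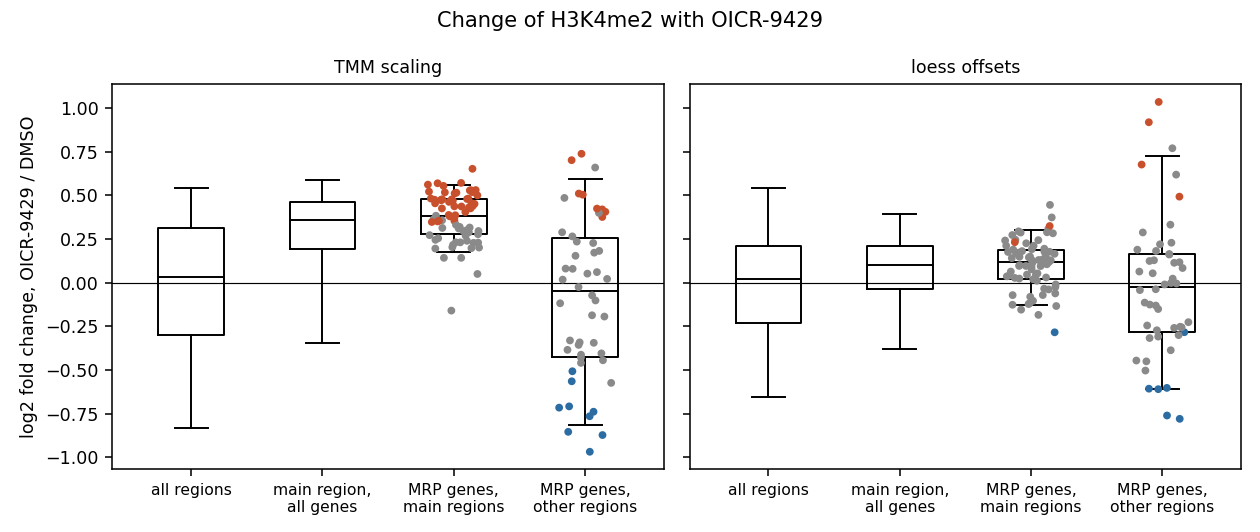
Log2 fold changes (OICR-9429 over DMSO, y axis) of 4 sets of regions (x axis) with TMM scaling (left) and with loess offsets (right). Boxes are quartiles with the median, whiskers the central 90% of values over regions, and dots single regions of mitochondrial ribosomal protein (MRP) genes, red where higher, blue where lower and grey where the threshold was not passed; main regions sit around 0.38 on the left and 0.12 on the right.

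How much of this is relative to other regions depended on the scaling. No spike-in factor entered these values, so all changes are relative to the rest of a library. Loess offsets take out of each library any drift of its fold changes with the strength of a region. They moved the median of all main regions from 0.36 to 0.10 and that of the mitochondrial ribosomal protein genes from 0.38 to 0.12. The distance between both medians was 0.03 with TMM and 0.02 with loess offsets. Only MRPS2 and MRPS16 were then called higher, MRPL10 was called lower, and 57 of 73 values were above 0, beside 6.72% higher and 4.85% lower among all main regions and 5.46% and 8.90% among all regions. With library totals the medians were 0.19 for the family and 0.16 for all main regions. There 22 regions of the family were higher (30.1%), beside 21.1% of all main regions. Counts of all regions summed per gene, scaled anew with TMM, gave 4 higher and 4 lower of 74 genes (median 0.060). Of all genes 5.61% were then higher and 12.2% lower (median 0.010).

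Genes of the large subunit, which forms the peptide bond, had 28 of 50 tested main regions higher (median 0.38), and genes of the small subunit, which decodes the mRNA, had 15 of 24 (median 0.42). No region of either subunit was lower, adjusted, at an unadjusted p under 0.05 or by DESeq2 (0 each). Proteins with a bacterial counterpart and those found in mitochondria only gave close medians. In the large subunit these were 0.38 (17 of 30 higher) and 0.38 (10 of 19 higher). In the small subunit they were 0.39 (9 of 16 higher) and 0.42 (6 of 8 higher). Over the main regions of all protein-coding genes 47.9% were higher and 3.07% lower (median 0.36). The sets were not tested against each other or against that share, and no difference is claimed. MRPS18A and MRPS30, despite their symbols, belong to the large subunit and are counted there.

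The largest change was at MRPS2, which encodes a protein of the small subunit shared with bacteria (chromosome 9, 135499031 to 135505319). Its levels were 50.3, 45.4 and 65.9 normalised CPM in DMSO replicates 1 to 3 and 101, 76.0 and 76.3 in OICR-9429 replicates 1 to 3. The groups did not overlap, with DMSO replicate 3 closest to the treated libraries and OICR-9429 replicate 1 highest (log2 fold change 0.65, SE 0.15, adjusted p = 0.00883). The value was 0.32 with loess offsets (adjusted p = 0.0428), and the call was lost only without DMSO replicate 2 among the fits that leave out 1 library (0.49, adjusted p = 0.0561). The region also holds the start of PIERCE1, 96 bases away on the other strand.

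MRPS16, the small-subunit gene of a protein conserved in bacteria, had the smallest adjusted p of the main regions (chromosome 10, 73243318 to 73254294). It read 82.8, 75.9 and 92.4 normalised CPM with DMSO and 130.3, 114 and 128 with OICR-9429. All treated libraries lay above all controls (log2 fold change 0.57, SE 0.12, adjusted p = 0.00509), and loess offsets gave 0.23 (adjusted p = 0.0360). With 1 library left out the value ran from 0.45 to 0.65 and passed in 6 of 6 fits. MRPS34, a mitochondria-specific protein of the small subunit, went from 55.2, 46.6 and 69.0 to 99.8, 74.9 and 78.8 normalised CPM. It rose by 0.57 (SE 0.15, adjusted p = 0.0140), and its region also holds the starts of EME2 and NME3. MRPS25, also specific to mitochondria, rose from 40.6, 37.6 and 51.9 to 70.8, 57.1 and 64.0 normalised CPM (log2 fold change 0.56, SE 0.14, adjusted p = 0.0111), in a region with no other start. MRPS34 and MRPS25 lost their calls without DMSO replicate 1 (adjusted p = 0.0633 and 0.0685) and without DMSO replicate 2 (0.0890 and 0.0667), with log2 fold changes of 0.37 to 0.73 and 0.41 to 0.71 over the 6 fits.

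Other small-subunit genes changed less. MRPS12, which encodes the protein of the decoding centre, lies 181 bases head to head with SARS2, the gene of the mitochondrial seryl-tRNA synthetase. Their shared region read 30.1, 30.0 and 40.0 normalised CPM with DMSO and 51.3, 43.8 and 39.2 with OICR-9429. The groups overlapped, since DMSO replicate 3 lay above OICR-9429 replicate 3 (log2 fold change 0.43, SE 0.15, adjusted p = 0.0379). Its call held without DMSO replicate 3 or OICR-9429 replicate 3 only, and it fell to 0.25 without OICR-9429 replicate 1 (adjusted p = 0.158). MRPS9 and MRPS21 had short main regions (2093 and 1386 bases) with few counts. They stood at 14.3 ± 1.61 and 10.6 ± 1.24 with DMSO and 19.6 ± 2.94 and 14.4 ± 1.67 normalised CPM with OICR-9429. Both were called higher (0.45 and 0.44, adjusted p = 0.0295 and 0.0322), calls held by MRPS9 only without DMSO replicate 3 or OICR-9429 replicate 2 and by MRPS21 only without DMSO replicate 3 or OICR-9429 replicate 3, and their lowest values with 1 library left out were 0.32 and 0.27. MRPS12 and MRPS21 were also lost with DESeq2 (adjusted p = 0.0521 and 0.0647). MRPS5, MRPS10, MRPS22, MRPS23 and MRPS28 did not pass, with log2 fold changes of 0.20 to 0.23 and adjusted p from 0.176 to 0.235. At MRPS22 the libraries read 17.5, 13.8 and 19.5 with DMSO and 20.4, 20.1 and 19.0 normalised CPM with OICR-9429, so the groups overlapped. MRPS10 levels were 51.7, 44.5 and 57.2 with DMSO and 58.4, 59.3 and 57.9 with OICR-9429, close to each other in the treated libraries and just above the highest control.

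In the large subunit the changes at MRPL22 (0.55), MRPL46 and MRPL15 (0.53 each), and MRPL18, MRPL52, MRPL20 and MRPL17 (0.52 each) were the largest. MRPL15, a protein with a bacterial counterpart, read 21.2, 21.4 and 23.6 normalised CPM with DMSO and 29.5, 30.6 and 35.6 with OICR-9429 (log2 fold change 0.53, SE 0.13, adjusted p = 0.00992). All 3 treated libraries stood above the controls, and the call was lost without DMSO replicate 1 or 2 (adjusted p = 0.0765 and 0.0529). MRPL52, a mitochondria-specific protein, had 168, 149.9 and 172 with DMSO and 262, 227 and 212 normalised CPM with OICR-9429 (0.52, SE 0.12, adjusted p = 0.00700). It passed in all 6 fits with 1 library left out (0.36 to 0.59), but not with loess offsets (0.18, adjusted p = 0.0953). Its region of 24518 bases also spans the start of MMP14, a membrane metalloprotease gene, so the counts cannot be split between both genes. MRPL46 and MRPS11 encode 1 protein of each subunit and start 320 bases apart in opposite directions. The shared region (chromosome 15, 88465530 to 88469308) read 22.5, 23.1 and 28.1 normalised CPM with DMSO and 35.6, 31.7 and 39.4 with OICR-9429, without overlap. It rose by 0.53 (SE 0.14, adjusted p = 0.0124), and lost its call without DMSO replicate 1 or 2 (0.41 and 0.43).

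Proteins at the functional centres of the large subunit were followed whatever their values. MRPL12 and MRPL10 form the stalk that recruits translation factors, and MRPL11 sits at its base. MRPL12 read 107, 96.8 and 132 with DMSO and 179.7, 147 and 149 normalised CPM with OICR-9429, with no overlap (0.50, SE 0.13, adjusted p = 0.0139), and its region takes in the starts of ARL16 and HGS. MRPL11 read 19.3, 16.7 and 25.6 with DMSO and 30.9, 28.0 and 25.4 with OICR-9429. It was called higher (0.45, adjusted p = 0.0371), although OICR-9429 replicate 3 lay just under DMSO replicate 3. The strongest region near MRPL10 lay 4653 bases from the gene and holds the start of SCRN2. There the log2 fold change was 0.05 (SE 0.12, adjusted p = 0.777), and -0.28 with loess offsets (adjusted p = 0.0269). A weaker region overlapping MRPL10 itself (chromosome 17, 47828568 to 47832460) went from 27.5 ± 3.81 to 35.7 ± 4.0 normalised CPM, a rise of 0.38 (adjusted p = 0.0497), and another that overlaps the gene and holds the start of OSBPL7 read 0.02 (adjusted p = 0.916), so the gene's value turned on which region stood for it. MRPL12 lost its call without DMSO replicate 1 or 2 (0.41 and 0.35), and MRPL11 held it only without DMSO replicate 3 or OICR-9429 replicate 3 (0.27 to 0.65 over the 6 fits).

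MRPL3, whose protein reaches towards the catalytic centre, had narrow treated values: 19.7, 17.9 and 21.3 with DMSO and 27.0, 27.3 and 27.4 normalised CPM with OICR-9429. It rose by 0.47 (SE 0.12, adjusted p = 0.0139), a call lost without DMSO replicate 1 or 2 or OICR-9429 replicate 2 (0.35 to 0.53 with 1 library left out). MRPL58, a peptidyl-tRNA hydrolase built into the large subunit, rose from 34.3, 32.5 and 40.7 to 52.9, 44.0 and 48.5 normalised CPM (0.44, SE 0.13, adjusted p = 0.0226). No treated library of MRPL58 reached down to the controls, and the call held only without DMSO replicate 3 or OICR-9429 replicate 2 (0.30 to 0.54). MRPL1, of the mobile stalk on the other side of the subunit, read 31.5, 26.5 and 31.0 with DMSO and 40.0, 35.6 and 38.1 with OICR-9429. Its 0.35 (SE 0.13, adjusted p = 0.0430) passed only without DMSO replicate 3 among the 6 fits and was lost with the DESeq2 test (adjusted p = 0.0683), so it stands at the edge of the threshold. MRPL24 had 184, 161 and 209 with DMSO and 283, 245 and 243 normalised CPM with OICR-9429. It rose by 0.47 (adjusted p = 0.0114) in a region shared with HDGF, a growth factor gene, and lost its call without DMSO replicate 1 or 2 (0.41 and 0.33).

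At the low end of the large subunit stood MRPL23, MRPL10, MRPL51 and MRPL13. MRPL51 had overlapping groups (52.3, 44.9 and 53.2 with DMSO, and 59.4, 51.3 and 55.3 normalised CPM with OICR-9429) and a log2 fold change of 0.14 (adjusted p = 0.389). MRPL13 also read 0.14 (adjusted p = 0.387), with treated values of 38.1, 39.4 and 42.9 against 37.0, 33.5 and 38.5. MRPL34, among the strongest regions of the family by count, had 0.20 (SE 0.12, adjusted p = 0.218). DMSO replicate 3, at 197 normalised CPM, lay above both lower treated libraries of MRPL34 (184 and 183). MRPS30 and MRPL28 did not pass either (0.31 and 0.25, adjusted p = 0.0691 and 0.143), although in both every treated library was above every control. Of the 31 tested genes without a call, 13 had groups that did not overlap. Over all tested main regions, called or not, 58.3% had every treated library above every control. The share among uncalled main regions of all genes was not counted.

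**Figure D2:**
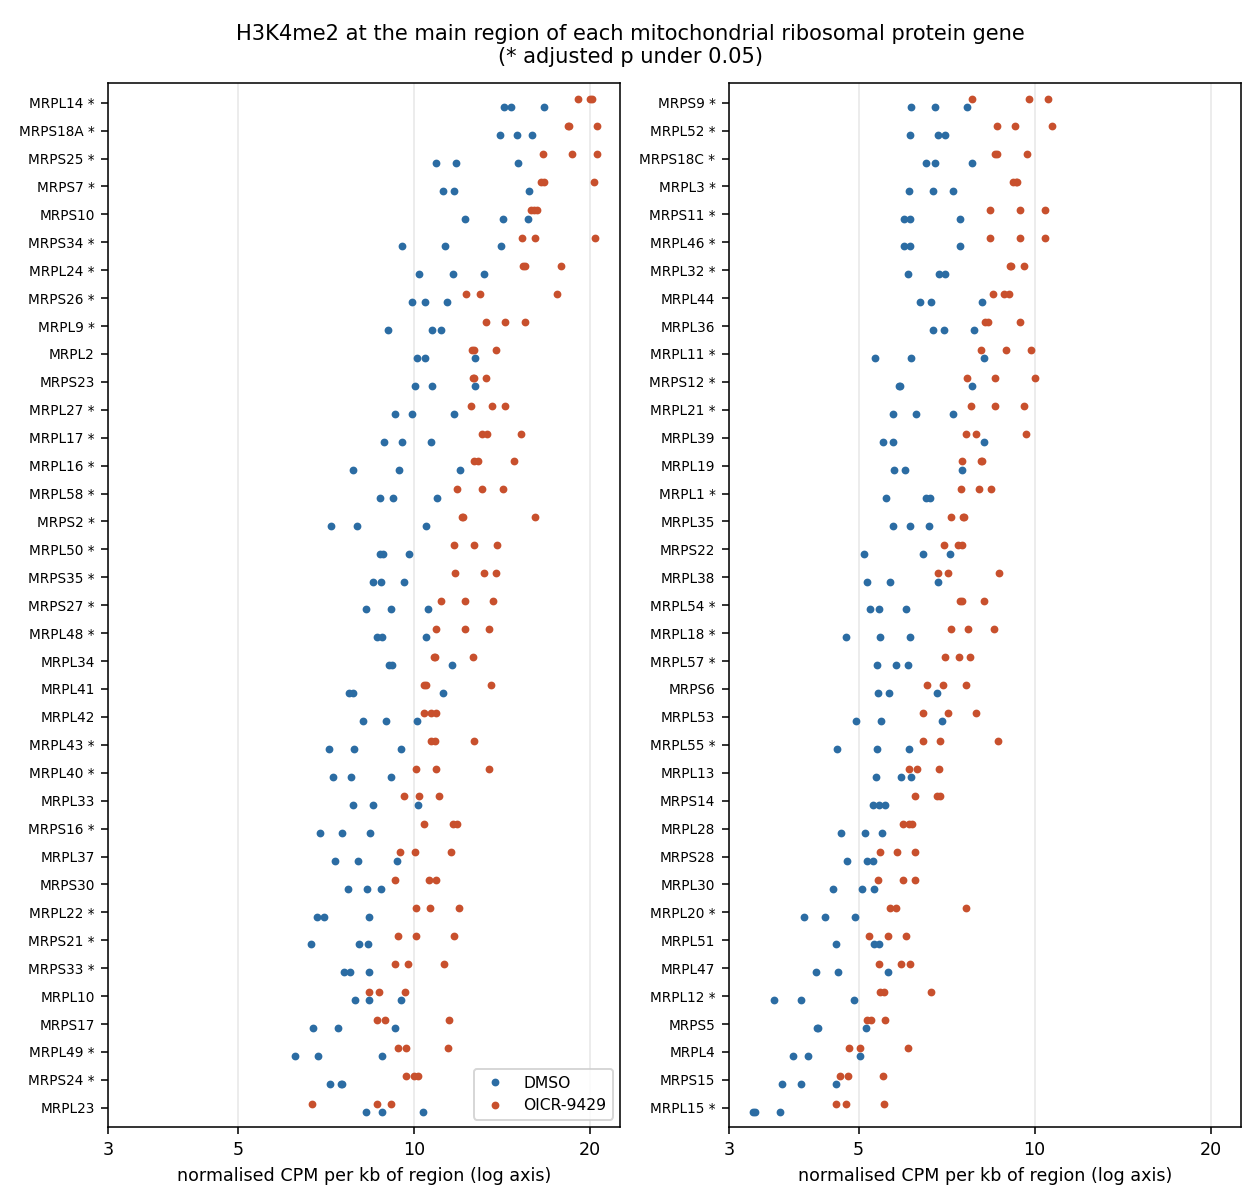
Normalised CPM per kb of region (x axis, log scale) at the main region of each tested mitochondrial ribosomal protein gene (y axis, ordered by mean level), with 1 dot per library, blue for DMSO and red for OICR-9429. Genes with an adjusted p under 0.05 carry an asterisk; the red dots lie mostly to the right of the blue ones, and means run from 4.19 at MRPL15 to 17.5 at MRPL14.

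The 3 genes MRPS18A, MRPS18B and MRPS18C descend from 1 bacterial protein, and only MRPS18C is the classical member of the small subunit. MRPS18A had 43.3, 40.4 and 45.8 with DMSO and 59.1, 53.1 and 52.9 normalised CPM with OICR-9429, and MRPS18C had 36.3, 35.0 and 42.0 against 45.9, 46.3 and 52.1. Each rose by 0.35 without overlap (adjusted p = 0.0367 and 0.0452), each lost its call with DESeq2 (0.0544 and 0.0584) and each held it only without DMSO replicate 3 among the fits with 1 library left out. Per kb of region MRPS18A stood higher, at 17.1 normalised CPM per kb, than MRPS18C at 8.00. MRPS18B could not be compared, since its region of 11420 bases over the start (chromosome 6, 30608472 to 30619891), listed as a peak, had 0 counts in all 6 libraries.

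That absence was shared by the neighbourhood. Within 500 kb of MRPS18B 57 of 69 regions (82.6%) had 0 counts in every library, against 1.53% of all regions. MRPL45, whose protein ties the mitochondrial ribosome to the inner membrane, had 0 to 3 counts per library at its start (chromosome 17, 38296504 to 38298109). There 21 of 36 regions within 500 kb had 0 counts. MRPL23, whose protein sits at the exit of the peptide tunnel, had 4 regions over the gene with at most 6 counts in a library, and 8 of 29 regions around it had none. Its main region therefore lay 2598 bases away, at 11.4 ± 1.36 normalised CPM with DMSO and 10.2 ± 1.60 with OICR-9429 (log2 fold change -0.16, adjusted p = 0.446), the only value under 0. The cause of these zeros was not tested. MRPS31 had no region within 5 kb, while none of the 24 regions within 500 kb of it had 0 counts.

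Many of these genes share their H3K4me2 region with a neighbour. The main region held the start of another protein-coding gene for 35 genes. Of the 69 members in the promoter table, 20 (29.0%) start within 1 kb of a gene on the other strand, against 12.3% of 15842 genes and 23.8% of cytosolic ribosomal protein genes. MRPL49 is paired with FAU, a cytosolic ribosomal protein gene, and MRPL51 with NCAPD2, a condensin gene. Among the 19 paired genes that were tested 16 were higher and 0 lower (median 0.47), beside 67.4% higher and 0.326% lower among all head-to-head genes (median 0.41). Paired genes included, 43 of the 74 tested genes were higher, and no difference between paired and other members was tested. For MRPL22, MRPL44 and MRPS7 the strongest region held a neighbour's start (GEMIN5, WDFY1 and MIF4GD) and not their own. MRPL22 read 0.55 at the GEMIN5 region (adjusted p = 0.00904, lost without DMSO replicate 1 or 2) and 0.29 at its own start (adjusted p = 0.101). MRPL44 read 0.32 at the WDFY1 region (adjusted p = 0.0659) and 0.08 at its own start (adjusted p = 0.671), whereas MRPS7 was called at both (0.47 and 0.42).

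Away from the main regions the family had a mixed pattern. Of 65 other regions 50 were tested. Among them 8 were higher and 9 lower, and the median change was -0.05 on the log2 scale. None of the 9 lower regions held a start in the promoter table. Of the family's 48 tested regions without such a start, main ones included, 6 were higher (12.5%) and 9 lower (18.8%). Among all regions without one 8.31% were higher and 16.9% lower. Of the 75 tested regions of these genes that held any protein-coding start, 44 were higher and 0 lower (0 at an unadjusted p under 0.05, 0 by DESeq2), beside 54.2% higher and 1.97% lower among all such regions. The 9 lower regions belonged to MRPL1, MRPL16, MRPL38, MRPS6, MRPL13, MRPL42, MRPS22, MRPL14 and MRPS27, in order of their fall.

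The lowest was inside MRPL1 (chromosome 4, 77881474 to 77882575), where levels were 6.76, 5.94 and 6.18 normalised CPM with DMSO and 3.05, 3.62 and 2.97 with OICR-9429. This region fell by 0.97 on the log2 scale (SE 0.17, adjusted p = 0.00234; -0.76 with loess offsets), while the main region at the gene's start rose by 0.35. A region 2714 bases from MRPL16 (chromosome 11, 59813492 to 59814641) read 10.5, 10.2 and 10.3 with DMSO and 5.03, 6.79 and 5.11 with OICR-9429. It fell by 0.87 (SE 0.16, adjusted p = 0.00253), beside 0.46 at the main region of that gene (adjusted p = 0.0319). A region inside MRPS6 (chromosome 21, 34128015 to 34130673) fell from 7.15 ± 0.724 to 4.23 ± 0.879 normalised CPM (-0.76, adjusted p = 0.00950). A broad, weak region near MRPL14 (chromosome 6, 44099639 to 44109806) fell from 17.1 ± 2.56 to 11.6 ± 1.26 (-0.56, adjusted p = 0.0132), while the main MRPL14 region, the strongest of the family per kb, rose by 0.38. These 4 were also called lower with loess offsets. Of the tested regions of these genes 48 held no start in the promoter table. They include main regions of members missing from that table, such as MRPL2 and MRPL15. With loess offsets 4 of the 48 were higher and 5 lower (all such regions 5.05% and 10.2%). The 75 regions with a start in the table had 2 higher and 2 lower (7.20% and 3.41%).

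Of the 8 other regions that were higher, 4 held the start of a neighbour or of the gene: SYVN1 near MRPL49, SPSB3 near MRPS34, SLC25A10 near MRPL12, and MRPS7 with GGA3. The SYVN1 region rose by 0.51 (adjusted p = 0.0132), the SPSB3 region by 0.50 (0.0161) and the MRPS7 region by 0.42 (0.0281). A small region of 386 bases near MRPL9 rose from 2.59 ± 0.612 to 4.32 ± 0.290 normalised CPM (0.74, adjusted p = 0.0171; 1.03 with loess offsets). Within genes the main region mostly had the higher value, and the same count was not made for other genes. Over all tested regions the median was 0.38 for those holding a protein-coding start and -0.06 for those holding none. In 31 genes with a tested main and another tested region, the median of the other regions was below the main region in 26, and 43 of the 50 other regions lay below their gene's main region, by a median of 0.35. Other regions were weaker (median 6.49 normalised CPM against 40.4), as the main region is by definition the one with the highest mean count. With loess offsets 4 of the 9 stayed lower and the medians were 0.12 for main and -0.02 for other regions. The order within genes was not counted with those offsets.

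**Figure D3:**
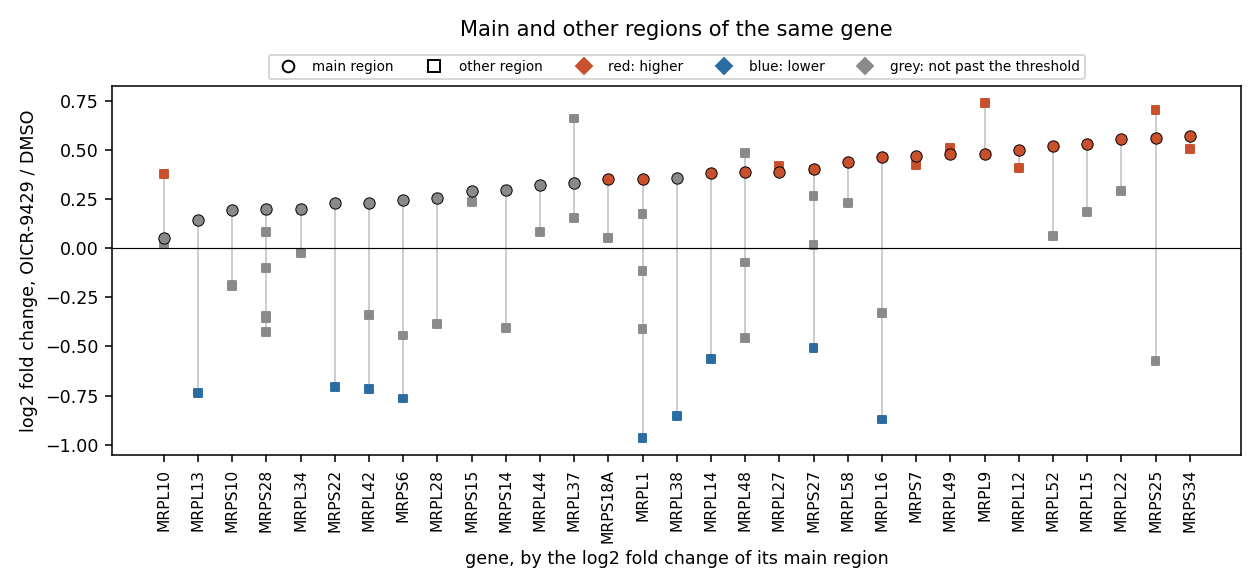
Log2 fold change (y axis) of the main region (circles) and the other tested regions (squares) of the 31 mitochondrial ribosomal protein genes that have both, ordered by the main region (x axis). Red marks regions called higher, blue lower and grey neither; all 9 blue squares lie below circles that are above 0.

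Levels per kb of region ran across the family from 4.19 normalised CPM per kb at MRPL15 to 17.5 at MRPL14, with a median of 8.66 against 9.14 for all main regions. The strongest by count were MRPL14, MRPL24, MRPL52 and MRPL34. The MRPL14 region read 230.4, 224 and 262 normalised CPM with DMSO and 317, 301 and 315 with OICR-9429, without overlap (0.38, SE 0.11, adjusted p = 0.0168; 0.05 with loess offsets). Its call was lost without DMSO replicate 1 or 2 or OICR-9429 replicate 3. The range within each group was narrow beside the range across genes, as the plot of levels by gene shows.

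The libraries themselves set how many genes passed. Against the DMSO mean of each region, the median member stood at -0.04, -0.14 and 0.18 in DMSO replicates 1 to 3 and at 0.50, 0.30 and 0.35 in OICR-9429 replicates 1 to 3 on the log2 scale. DMSO replicate 3 was above that mean at 73 of 73 regions and DMSO replicate 2 at none. All main regions moved alike, at -0.03, -0.15 and 0.18 and then 0.45, 0.30 and 0.32. Without DMSO replicate 1, 3 of the 42 regions were called higher (MRPL52, MRPS16 and MRPS2), and without DMSO replicate 2 only MRPL52 and MRPS16. Without DMSO replicate 3 the count was 62. It was 21, 27 and 32 without OICR-9429 replicates 1, 2 and 3. The share over all main regions moved with it, to 6.11%, 5.34%, 68.5%, 25.2%, 26.2% and 34.1% in the same order, beside 4.11%, 2.74%, 84.9%, 28.8%, 37.0% and 43.8% of the family. The median of the family stayed above 0 in each of these fits, between 0.26 and 0.48.

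**Figure D4:**
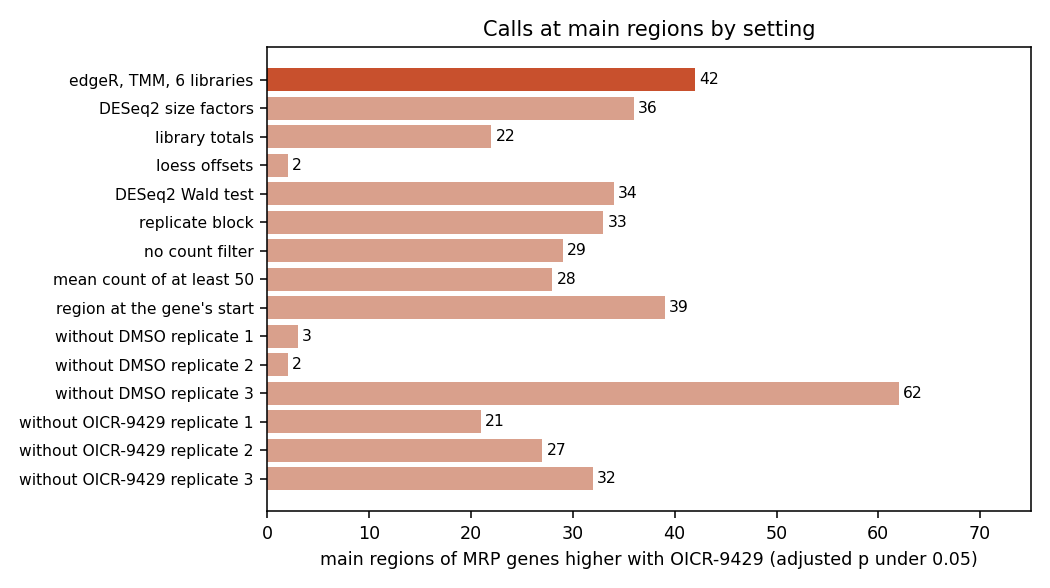
Number of main regions of mitochondrial ribosomal protein genes called higher with OICR-9429 (x axis) in the fit with all libraries (42, dark bar) and under alternative scalings, filters, tests and sets of libraries (y axis). The count falls to 2 with loess offsets and without DMSO replicate 2, and rises to 62 without DMSO replicate 3.

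Motif content was described for the 69 members in the promoter table, on both strands of the same windows. A YY1 match was present in 30.4% of the genes, against 4.66% of all protein-coding genes and 11.1% of cytosolic ribosomal protein genes. ETS matches were present in 43.5%, against 16.5% and 34.9%. The NRF1 motif was found in 20.3%, against 12.5% and 12.7%, and 27.5% of the members had none of these 3 motifs, against 71.0% of all genes. The SP1 motif (GGGCGG) was present in 60.9% of members and 64.3% of all genes. For the E-box, the site that MYC can bind, spelled CACGTG, the shares were 13.0% and 10.9%. Some of these motifs overlap: the NRF1 motif can read on both strands of 1 site, as in MRPL17. Of 24 YY1 matches 16 lay after the start on the gene's own strand, from base 7 to base 36, against 405 of 817 over all genes. The YY1 letters shown in capitals for MRPL46, MRPL51 and MRPL20 are of this kind.

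**Figure D5:**
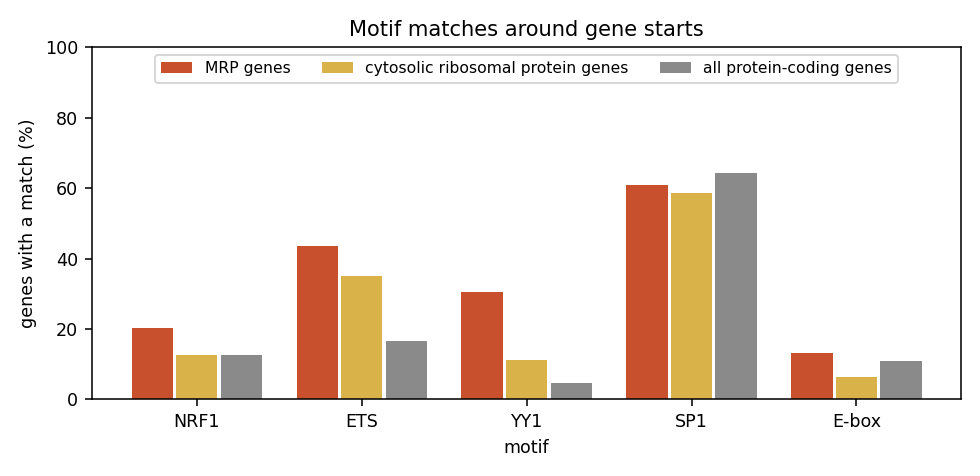
Share of genes (y axis, percent) with a match to each motif (x axis) between 250 bases before and 50 bases after an annotated start, for mitochondrial ribosomal protein (MRP) genes, cytosolic ribosomal protein genes and all protein-coding genes of the promoter table. YY1 and ETS bars are higher for MRP genes (30.4% and 43.5%) than for all genes (4.66% and 16.5%), while SP1 bars are close.

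The changes of H3K4me2 were close with and without these letters. Members with a YY1 match had a median log2 fold change of 0.43 (12 of 19 higher) and those without 0.39 (29 of 47 higher). For ETS the medians were 0.39 with a match (19 of 29 higher) and 0.40 without (22 of 37 higher), and for NRF1 they were 0.35 (8 of 13) and 0.43 (33 of 53). These are descriptions of overlapping sets, with no test, and among all main regions 47.9% were higher. Motifs were read at the gene's own start, whereas the change is that of its main region. For MRPL22, MRPL44 and MRPS7 that region holds a neighbour's start and not their own. MRPS2, whose printed window has none of the 3 motifs, changed most, and MRPL51, with 2 ETS matches and 1 YY1 match, was among those that did not pass.

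Other genes of mitochondrial gene expression gave values of the same size at their main regions. Together, 46 of 76 regions (60.5%) were higher and 0 lower (0 lower at an unadjusted p under 0.05, 0 by DESeq2), with a median of 0.41. Among the main regions of all protein-coding genes 47.9% were higher and 3.07% lower, with a median of 0.36. No list was tested against that share. The lists are not fully separate from the members: SARS2, of the aminoacyl-tRNA list, starts in the main region of MRPS12. Translation factors had 8 of 14 higher, led by MTIF3, an initiation factor gene that rose from 27.0 ± 2.92 to 40.4 ± 1.27 normalised CPM (0.58, adjusted p = 0.00641; 0.31 with loess offsets). OXA1L, the membrane insertase gene, and MRRF, the ribosome recycling factor gene, rose by 0.52 and 0.41. Genes of mitochondrial aminoacyl-tRNA synthesis had 15 of 21 higher. MARS2, the methionyl-tRNA synthetase gene, rose by 0.59 (adjusted p = 0.00641), KARS1 by 0.53 and CARS2 by 0.55, the last at a region that holds the start of ING1. Assembly and rRNA modification factors had 15 of 25 higher, among them the GTPase gene GTPBP10 (0.59, adjusted p = 0.00589), MTERF3 (0.49) and NGRN (0.48).

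Genes of mitochondrial transcription and RNA stability had 5 of 10 higher, with POLRMT, the mitochondrial RNA polymerase gene, at 0.62 (adjusted p = 0.010), and LRPPRC and SLIRP, which encode partners in mRNA stability, at 0.52 and 0.50. The 6 genes taken as mitoribosomal proteins with another symbol were DAP3, PTCD3, AURKAIP1, CHCHD1, GADD45GIP1 and KGD4. Of these, 3 were higher: CHCHD1 (0.45), GADD45GIP1 (0.38) and DAP3 (0.34). Levels in this list ran from 1.22 to 196 normalised CPM, so the lowest was near the floor. Regulators in the nucleus had 6 of 11 higher, led by TFE3 (0.65, adjusted p = 0.00451), MYC (0.60) and NRF1 (0.57), all 3 also called with loess offsets. With those offsets 1 of the 11 was called lower. All main regions had 47.9% higher and 3.07% lower (median 0.36). Cytosolic ribosomal protein genes, the most similar family, had 47 of 75 higher and 0 lower (0 lower at an unadjusted p under 0.05, 0 by DESeq2) and a median of 0.39, against 0.38 here. With loess offsets that family had 5 higher and 4 lower regions and a median of 0.06, against 0.12. Neither difference was tested, and FAU, of the cytosolic family, starts in the main region of MRPL49.

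The protein-coding genes whose main region ran most like the mean of the family over the 6 libraries were TMED2, RASSF3, FLRT2 and PPP3CA, with a region holding FOSL1 and its neighbours among them (Pearson r of log2 normalised CPM 0.9995 to 0.9997). Over 6 libraries that all share the same treatment contrast such values are common: 7245 of 12187 main regions had r above 0.9.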

How the data were processed

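Tools and builds are listed without roles or settings in the submitters' processing notes: DESeq2, featureCounts, MACS2, Bowtie and deepTools, and dm6 beside hg38. Region coordinates are read here as hg38. Values in the table the authors deposited are raw read counts per region and ChIP library, so only places called as peaks are seen. Columns were matched to replicates through the labels' descriptions. Tests used edgeR 4.0.16 under R 4.3.3 (filterByExpr, TMM, glmQLFit with robust estimation, glmQLFTest, no covariate), with Benjamini-Hochberg adjustment over 51156 regions. SE is the size of the log2 fold change divided by the square root of F. Alternatives used DESeq2 1.42.0 and loess offsets (limma 3.58.1, span 0.3).

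The members and all lists were chosen with earlier results of these data known. Named genes are the 8 highest and 8 lowest log2 fold changes, the 4 highest and 4 lowest levels, fixed genes of known role, the 4 other regions with the smallest p each way, and 3 genes per list. MRPL17, MRPL18, MRPL20, MRPL49, MRPS7, neighbours and the remaining lower regions were named after their values were seen. Libraries numbered as biological replicates may share cultures, so p-values measure the spread between these samples. Promoter windows came from RefSeq (69 of 77 members matched; MRPL2, MRPL10, MRPL13, MRPL15, MRPL21, MRPL23, MRPL35 and MRPS28 did not). Exons and UTRs were not told apart.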

Additional observations from a re-analysis of the deposited data

How the results depend on the processing

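Counts are given as regions called higher with OICR-9429. With library totals in place of TMM, 3301 of all regions were higher and 11984 lower (median -0.17), against 8709, 7179 and 0.03. The regions of the mitochondrial ribosomal protein genes had 24 higher and 16 lower (median 0.11), against 50, 9 and 0.30, and their main regions 22 higher (median 0.19), against 42 and 0.38. The other mitochondrial gene lists had 17 higher (0.21), against 46 and 0.41, and the cytosolic ribosomal protein genes 24 higher and 2 lower (0.19), against 47, 0 and 0.39. With loess offsets the same sets had 2794 higher and 4553 lower; 6 higher and 7 lower (0.10); 2 higher and 1 lower (0.12); 4 higher (0.11); and 5 higher and 4 lower (0.060). A mean count of at least 50 gave 5073 (median -0.028) over all regions, 32 for regions of the family, 23 for the other mitochondrial lists and 29 higher and 1 lower (0.29) for the cytosolic family. Without a count filter the values were a median of -0.029 over all regions and 33, 30 and 31 higher for those 3 sets. A test against a fold of 1.2 left 986 higher and 2989 lower over all regions, 2 and 3 for regions of the family, 2 main regions (2.74%, beside 4.69% of all main regions), 3 other mitochondrial genes and 5 cytosolic ones. An adjusted p under 0.01 left 1472 and 2638, 6 and 3, 6, 6 and 7 in the same order. Regions overlapping the gene span only, or within 1 kb of it, held 5 lower ones each. Counts of all regions summed per gene, scaled anew with TMM, gave 4 higher and 4 lower of 74 members and a median of 0.060. Of 15453 genes 867 were then higher (5.61%) and 1884 lower (12.2%), with a median of 0.010. The cause of these shifts was not tested.

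With 1 library left out, all regions had 1104 to 12192 higher and 4096 to 8234 lower, with medians from -0.025 to 0.037. The ranges were 2 to 71 higher, 4 to 10 lower and medians of 0.17 to 0.38 for regions of the family. Its main regions had 2 to 62 higher (0.26 to 0.48), the other mitochondrial lists 3 to 64 (0.26 to 0.49) and the cytosolic family 6 to 60 (0.25 to 0.50). The lowest counts of higher regions came without DMSO replicate 2 and the highest without DMSO replicate 3. The shares of counts in the regions of the family moved by less than 1 SD.

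Signs turned for 15 named genes with summed counts: MRPL1 (-0.34), MRPL10 (-0.18), MRPL13 (-0.20), MRPL28 (-0.18), MRPL34 (-0.11), MRPL44 (-0.062), MRPL51 (-0.16), MRPS10 (-0.20), MRPS18A (-0.024), MRPS22 (-0.13), MRPS23 (-0.090), MRPS28 (-0.27), MRPS5 (-0.065), NRF1 (-0.0048) and DAP3 (-0.085). With loess offsets they turned for MRPL10 (-0.28), MRPL13 (-0.15), MRPL34 (-0.13), MRPL51 (-0.18), MRPS10 (-0.13), MRPS23 (-0.12), MRPS28 (-0.038) and MRPS5 (-0.025). With library totals they turned for MRPL10 (-0.15), MRPL13 (-0.055), MRPL51 (-0.056) and MRPS28 (-0.00042). MRPL10 also read -0.053 under the stricter count filter, -0.020 with no filter, and -0.082 to 0.13 with 1 library left out. The summed counts had TMM factors of their own, so summing and scaling changed together there. MRPL51, which has 1 region only, went from 0.14 to -0.16 with the summed counts.

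The deviations of same-numbered DMSO and OICR-9429 libraries correlated at -0.157, 0.182 and -0.194, and the labels tie no number to a shared culture or day, so the numbers were not taken as pairs. With the replicate number as a block, 33 main regions were higher (45.2%, beside 36.7% of all main regions) and 0 lower. Regions of the family had 37 higher and 7 lower, beside 6333 and 5826 of all regions. Over regions, libraries of 1 group differed by 1.54 (DMSO replicates 1 and 2) to 8.61 (OICR-9429 replicates 1 and 3) times the variance that counting error alone gives (chi-square per degree of freedom). Counting error is thus a large share of the first. These figures pool all regions and do not give the precision of weak or strong ones.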
